A study of Caenorhabditis elegans with 2 samples.

Results

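LIN-54 binding sites that lie close to the 5′ end of a single gene were described here, from chromatin immunoprecipitation with sequencing (ChIP-seq) in whole Caenorhabditis elegans. They are the autosomal peaks of the list that passed the irreproducible discovery rate (IDR) procedure, with 3 conditions on the summit, the position of a peak's maximum. The summit lay in the promoter window of exactly 1 protein-coding gene, which starts 1000 bp before each of its transcript 5′ ends and reaches 300 bp past it. It also lay between -400 and +300 bp of the nearest of these ends, and over 200 bp away from tRNA genes. These conditions selected 999 peaks, 29.0% of the IDR list and 33.0% of its 3026 autosomal peaks away from tRNA genes. The list also held 169 peaks on X and 254 near tRNA genes. They chose the peaks by position alone, so signal, replicate agreement and sequence were not used beyond entry to the IDR list.

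The study has 1 group of 2 biological replicates. The animals were young adults of mixed sex at 65 hours, grown from larvae synchronized by bleaching and starvation at the L1 stage. They were strain OP743, which has the mutation unc-119(tm4063) and the integrated transgene wgIs743. This transgene is a fosmid with lin-54 fused to the tags TY1, EGFP and 3xFLAG, and with unc-119(+), which rescues the mutation and marks transgenic animals. The antibody was directed against GFP, so the values describe the tagged protein of 1 line in a mixture of germline and somatic cells, and no untagged or mutant group can be set beside them here. The labels do not say that the 2 replicates came from separate cultures beyond calling them biological. The peak caller's signal value has no stated unit and only ranks peaks within a list, and the read depth behind it is unknown.

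LIN-54 is the DNA-binding subunit of the DREAM complex that recognises the cell cycle genes homology region, or CHR element. The complex also holds the E2F-family protein EFL-1 with its partner DPL-1, which bind E2F sites, and the retinoblastoma-like protein LIN-35, and it is known for repressing cell cycle and germline genes. In C. elegans many messenger RNAs receive a spliced leader, so the annotated 5′ end of a transcript is often the splice site next to the start codon and not the place where transcription starts.

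The stretches of 101 bp around the summits of 10 peaks show the sequences that the results below turn on. They are read in the direction of the gene, 5′ to 3′, from the reference genome (WBcel235, ce11), with the summit at the middle base. Capitals mark matches to the E2F site (TTCCCGC or TTCGCGC or TTGCCGC or TTGGCGC) and to the CHR element (TTTGAA or TTCGAA), each searched on both strands. The first 5 hold both elements, from genes for replication (pcn-1, mcm-2), chromatin (mes-2, mys-1) and germline RNA (daz-1). They are examples only. Peaks with both elements at other genes, such as the chaperone gene dnj-9 (signal 1884) and fbxl-2 (1803), are stronger than that of daz-1 (625) but are not shown. The next 2 hold a CHR element without an E2F site, the following 1 an E2F site alone, and the last 2 neither.
pcn-1, chrIV:4049647-4049747, minus strand: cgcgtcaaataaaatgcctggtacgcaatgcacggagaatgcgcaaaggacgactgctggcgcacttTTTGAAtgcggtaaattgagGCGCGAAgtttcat
mcm-2, chrII:12006824-12006924, minus strand: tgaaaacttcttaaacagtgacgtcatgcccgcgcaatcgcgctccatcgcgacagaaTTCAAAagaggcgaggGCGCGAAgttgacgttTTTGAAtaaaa
mes-2, chrII:14383787-14383887, plus strand: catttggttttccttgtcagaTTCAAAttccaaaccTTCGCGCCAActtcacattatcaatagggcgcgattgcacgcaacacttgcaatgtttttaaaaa
mys-1, chrV:7084900-7085000, minus strand: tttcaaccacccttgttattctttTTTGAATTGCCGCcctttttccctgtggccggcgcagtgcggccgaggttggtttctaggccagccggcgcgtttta
daz-1, chrII:5456024-5456124, plus strand: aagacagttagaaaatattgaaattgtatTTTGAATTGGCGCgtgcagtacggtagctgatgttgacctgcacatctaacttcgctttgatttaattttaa
rpl-3, chrIII:3867518-3867618, plus strand: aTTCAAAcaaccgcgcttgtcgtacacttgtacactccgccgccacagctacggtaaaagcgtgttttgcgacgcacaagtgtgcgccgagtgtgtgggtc
pafo-1, chrV:11521577-11521677, plus strand: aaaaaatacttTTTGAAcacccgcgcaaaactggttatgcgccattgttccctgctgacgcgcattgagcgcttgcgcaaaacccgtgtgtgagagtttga
lin-5, chrII:7860280-7860380, plus strand: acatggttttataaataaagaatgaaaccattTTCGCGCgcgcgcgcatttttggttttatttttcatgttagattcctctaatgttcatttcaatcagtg
cdc-48.1, chrII:10563519-10563619, minus strand: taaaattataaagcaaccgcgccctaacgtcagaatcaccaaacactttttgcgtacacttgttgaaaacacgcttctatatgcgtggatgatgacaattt
cox-5A, chrIII:12905142-12905242, plus strand: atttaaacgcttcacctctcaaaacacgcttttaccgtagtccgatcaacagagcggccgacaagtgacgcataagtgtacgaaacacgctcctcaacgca

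The 999 peaks lay at 965 of the 17242 autosomal protein-coding genes (5.6%). Of these genes, 32 had 2 such peaks, and unc-101, which encodes a clathrin adaptor subunit, had 3. The unc-101 peaks had signals of 315, 172 and 149, and those at 315 and 149 matched the same region of replicate 1, with a signal of 188. Chromosome I held 239 of the peaks, III 209, IV 201, II 191 and V 159. As a share of each chromosome's protein-coding genes this was 8.03% on I, 7.61% on III, 5.82% on IV, 5.39% on II and 3.12% on V. Chromosome V thus carried a peak of this kind at the smallest share of its genes. The middle of the chromosomes, from 25% to 75% of their length, held 59.4% of these peaks and 59.1% of the other 2027 autosomal peaks away from tRNA genes (59.2% over both). The odds ratio was 1.01 (95% interval 0.864 to 1.18), so no difference in chromosomal position was detected.

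Most summits lay upstream of the annotated 5′ end. The median position was -153 bp, with quartiles of -249.5 and -42.5 bp, and 825 of the 999 summits (82.6%) were upstream. By 100 bp steps, the interval from -200 to -101 bp held most summits, 286, and the interval from 200 to 300 bp fewest, 27. Of all summits, 677 (67.8%) were intergenic, 145 lay in an exon and 135 in an intron of the peak's own gene, and 42 lay in another gene, 19 in an exon and 23 in an intron. The position also varied with the distance from the annotated 5′ end to the start codon. Where that distance was 1 to 30 bp, as for 503 peaks, the median summit was at -184 bp, and where it was over 30 bp, as for 357 peaks, it was at -64 bp. For the 139 peaks whose annotated 5′ end was the start codon itself the median was -159 bp. The closest peaks inside the upstream limit were at C27F2.7 and pinn-1, both at -400 bp, with signals of 294 and 354. The closest peaks outside it were at unc-33 (-401 bp, signal 117), fbxa-106 and lin-66 (both -409 bp, signals 167 and 201). Inside the downstream limit, guk-1 had a summit at +298 bp with a signal of 103, and R08C7.12 one at +291 bp with a signal of 101.

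**Figure D1:**
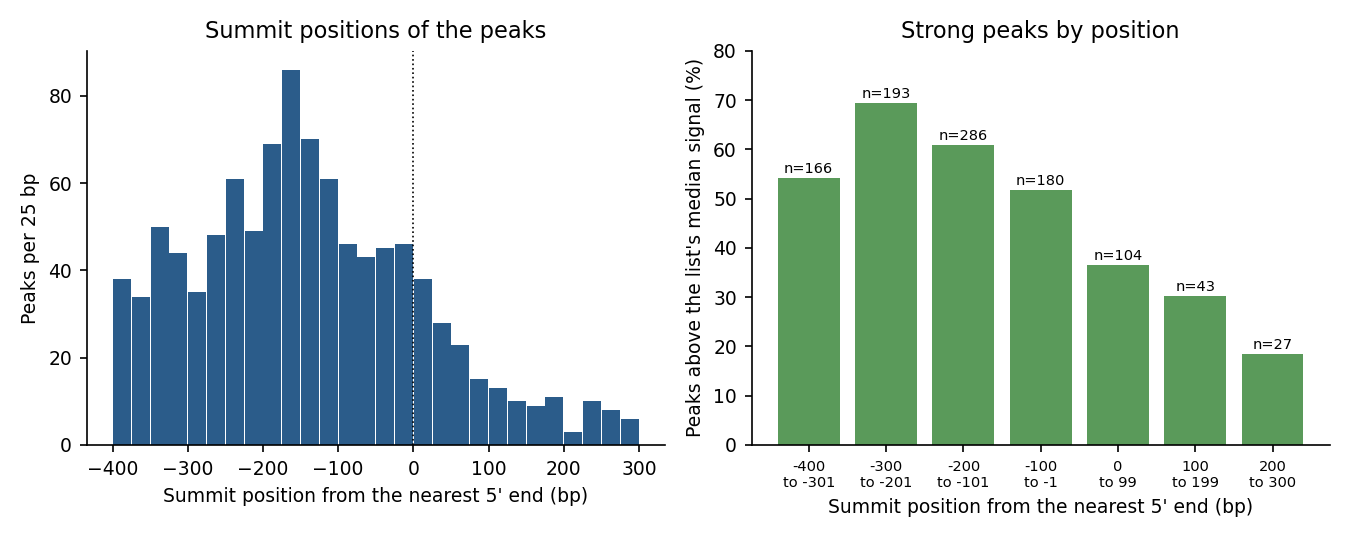
Left, number of summits in 25 bp steps by position from the nearest annotated 5′ end (bp, negative is upstream). Right, share of peaks with a signal above the median of the IDR list, by 100 bp interval, with the number of peaks above each bar. Most summits lie upstream, and the share of strong peaks is 69.4% from -300 to -201 bp and 18.5% from 200 to 300 bp.

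Signal values of the 999 peaks ran from 98.2 to 7882, with a median of 192 and quartiles of 124 and 349. In the first 100 of the IDR list, 46 peaks belonged to this group. Against the IDR list's median signal of 177, 547 of 999 peaks were stronger (54.8%, Wilson 95% interval 51.7% to 57.8%, beside 51.3% of all autosomal peaks away from tRNA genes). Upstream summits were stronger than downstream ones. Of the upstream peaks 59.5% were above the list's median and of the downstream peaks 32.2%, an odds ratio of 3.09 (95% interval 2.16 to 4.47, two-sided Fisher's exact test, adjusted p = 3.96e-10 over 20 tests). The median signal was 250 from -300 to -201 bp, 213 from -200 to -101 bp, 147 from 0 to 99 bp and 118.7 from 200 to 300 bp.

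Compared with other classes of peak, those near 5′ ends stood between windows shared by several genes and all the rest. Of 784 peaks in windows of several genes 65.7% were above the median (odds ratio 0.632, interval 0.519 to 0.770, Fisher's exact test, adjusted p = 1.21e-05). Of 339 peaks over 400 bp upstream of a single gene 46.3% were (odds ratio 1.40, interval 1.09 to 1.81, Fisher's exact test, adjusted p = 0.0171). Gene body peaks (34.3% of 420) and intergenic peaks (39.3% of 484) had the lowest shares, in Fisher's exact tests chosen after the values were seen (odds ratios 2.32 and 1.87, adjusted p = 9.37e-12 and 6.38e-08 over 6 such tests). Against all 2027 other peaks (49.6%) the odds ratio was 1.23 (Fisher's exact test, adjusted p = 0.0171). By the same exact test it was 1.11 (adjusted p = 0.483) when the list was limited to the peaks above its median signal and set against their own median, and 1.23 (adjusted p = 0.294) among peaks with a GC share of 35% to 45%. Peaks over which the tests run are not replicates of a condition, and the p-values describe differences between peak classes in these pooled libraries.

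The strongest of these peaks, which was also first in each replicate, lay at -286 bp of rpl-3, which encodes ribosomal protein uL3, with a signal of 4005 in replicate 1 and 3909 in replicate 2. The peak of cdc-48.1, which encodes the p97-type ATPase that extracts ubiquitinated proteins, had signals of 2094 and 2269. That of tba-2, an alpha-tubulin gene, had 1412 and 1318. Next was pcn-1, the sliding clamp PCNA of replication forks, with 1296 and 1215. The eif-3.C peak, of a translation initiation factor subunit, had 1251 and 1223, and the pafo-1 peak, of an RNA polymerase II-associated factor, had 1123 and 1060. The cytochrome oxidase gene cox-5A had 1118 and 1007, and eelo-2, annotated with a peptidase domain, had 1079 and 972. The nuclear import receptor gene imb-3 had 967 and 959, and Y39B6A.43, annotated with a domain of unknown function, 956 and 961. In both replicates all 10 ranked among the first 23 regions, and none of them stood out in 1 replicate alone.

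Of these 10 summits 9 lay between 76 and 299 bp upstream, and that of Y39B6A.43 lay at -8 bp. The 3 strongest peaks with a summit downstream were at ints-4, an Integrator subunit gene (+23 bp, signals 919 and 946 in replicates 1 and 2), at Y55F3BR.1, the homolog of the RNA helicase DDX1 (+72 bp, 624 and 650), and at hrpu-1, annotated with a SPRY domain (+98 bp, 485 and 478). The weakest of all was at ral-1, a Ras-like GTPase gene, with 38.2 and 59.8.

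Of the 999 peaks, 993 overlapped a region of both relaxed lists, beside 1999 of the 2027 other autosomal peaks away from tRNA genes. The IDR list was itself chosen for agreement between the replicates, so this overlap is no separate evidence of agreement. For each replicate, as many of the strongest regions were then taken as the IDR list holds. Among these in both replicates were 766 of the 999 peaks (76.7%, beside 75.2% of all autosomal peaks away from tRNA genes). The other autosomal peaks had 74.5% (odds ratio 1.13, interval 0.940 to 1.35, Fisher's exact test, adjusted p = 0.324), so a difference was not detected. For 218 peaks only 1 replicate had them at that depth, and for 15 neither did. These were the weaker ones by pooled signal: the share found in both was 24.8% in the weakest quartile of the peaks, 83.5% and 98.4% in the next 2 quartiles, and 100% in the strongest. The pooled signal derives from the same 2 replicates, so this rise is partly built in. Across the 993 peaks the signals of the replicates had a Spearman rho of 0.841 and a Pearson r of 0.906 on the log10 scale, a description across peaks chosen for agreeing between replicates. The summits of the replicates were a median of 16 bp apart, 659 of them (66.4%) within 25 bp, and 48 over 100 bp.

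**Figure D2:**
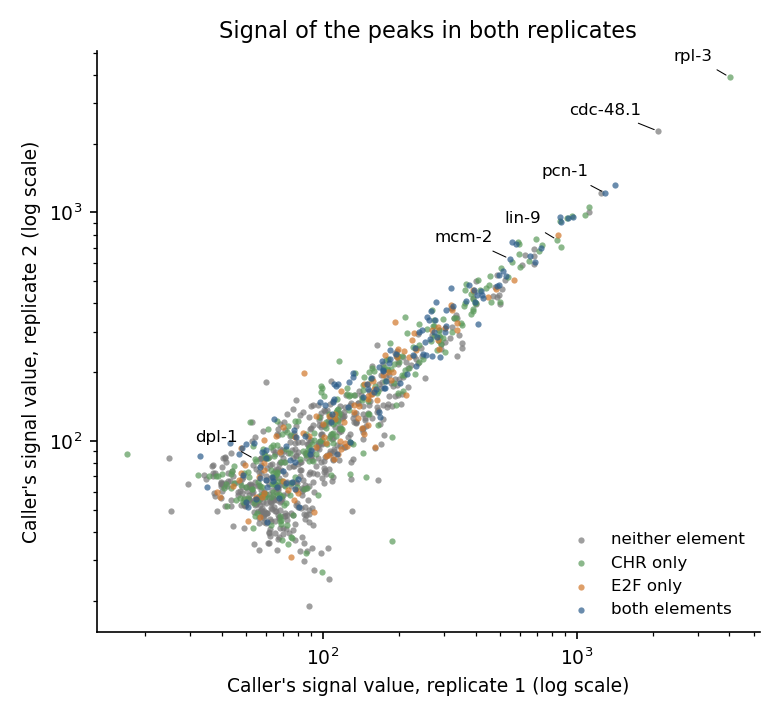
Caller's signal value of each peak in replicate 1 against replicate 2, both on log scales, for the 993 peaks found in both, coloured by the elements within 50 bp of the summit. The strong peaks follow a narrow diagonal up to rpl-3 at 4005 and 3909, and the weak ones scatter more widely.

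E2F sites were found within 50 bp of 215 of the 999 summits (21.5%, interval 19.1% to 24.2%, beside 18.3% of all autosomal peaks away from tRNA genes), CHR elements at 389 (38.9%, interval 35.96% to 42.0%, beside 35.5%), and both at 123 (12.3%, beside 10.4%). The remaining 518 summits had neither. In windows of the same 101 bp length centred at -153 bp of all 17242 autosomal protein-coding genes, 3.58% held an E2F site, 35.03% a CHR element and 1.33% both. These windows had a median GC share of 32.7% against 44.6% at the peaks. Among other short words the peaks held TATAAA at 5.41% of summits against 13.5% of all promoter windows, TTTTTTTT at 4.20% against 13.6%, TTTCAG, the splice acceptor word, at 11.2% against 15.7%, CACGTG at 4.30% against 1.75% and GAGAGA at 16.4% against 8.14%. These differences are descriptions, and base composition moved with them.

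The elements were more frequent at stronger peaks. E2F sites were at 9.2% of summits in the weakest quartile of the peaks, then at 17.7% and 24.0%, and at 35.2% in the strongest (odds ratio strongest against weakest 5.34, interval 3.18 to 9.26, two-sided Fisher's exact test, adjusted p = 1.70e-11). CHR elements were at 26%, 34.1%, 35.2% and 60.4% (odds ratio 4.33, interval 2.92 to 6.47, the same exact test, adjusted p = 1.73e-13). With the strongest regions of replicate 2 as the peak list, replicate 1 left out, the CHR odds ratio was 2.76 and still passed. The CHR share thus stood nearly level over the middle quartiles and was highest by far in the strongest. The number of summits with neither element was 172, 147, 128 and 71 in the same order. The median GC share was 42.6% in the weakest quartile and 46.5% in the strongest, and its part in these differences was not tested beyond a band of 35% to 45% GC, in which both calls held.

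Peaks with both elements had a median signal of 344, those with an E2F site alone 251, those with a CHR element alone 225 and those with neither 157. In the replicates the medians ran in the same order, from 168 to 82.4 in replicate 1 and from 184 to 80.9 in replicate 2. Of the peaks with an E2F site 73.0% were above the median of the IDR list, and of those without 49.7% (odds ratio 2.73, interval 1.94 to 3.88, Fisher's exact test, adjusted p = 3.74e-09). Lack of both elements did not preclude a strong peak, as the sequences of cdc-48.1 and cox-5A above show, and eif-3.C also had neither.

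**Figure D3:**
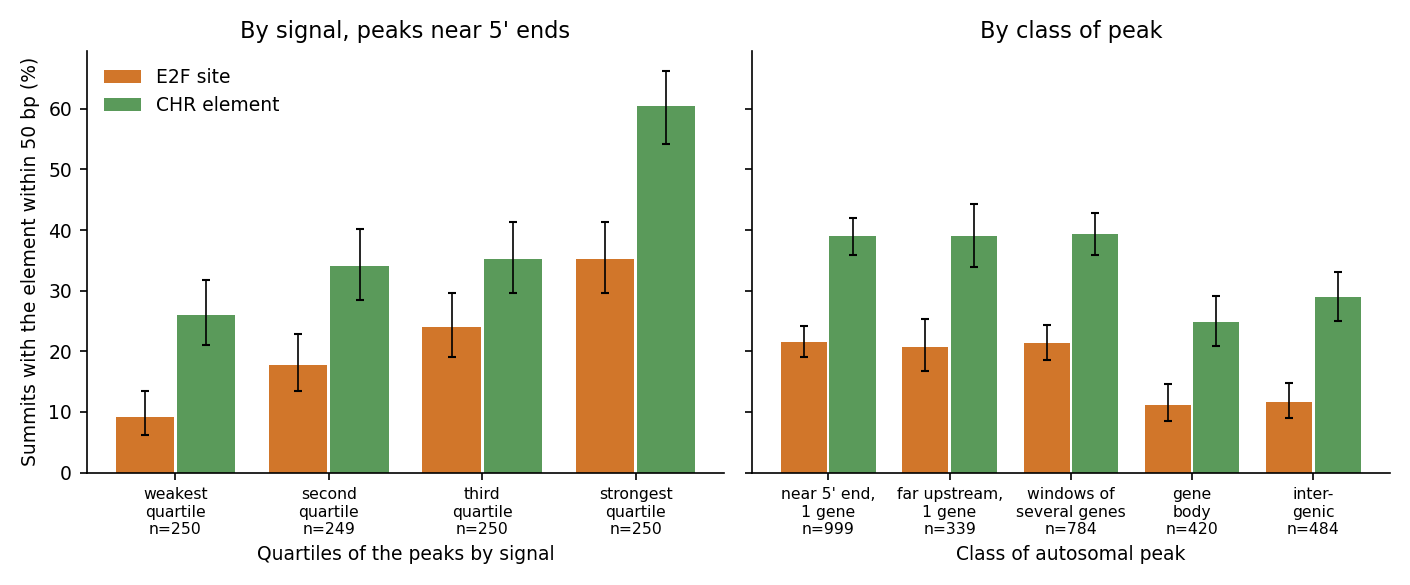
Share of summits with an E2F site or a CHR element within 50 bp (%), with 95% Wilson intervals and the number of peaks under each pair of bars. Left, the 999 peaks by quartile of signal, where E2F goes from 9.2% to 35.2% and CHR from 26% to 60.4%. Right, 5 classes of autosomal peak, where the 3 promoter classes have E2F shares of 20.6% to 21.5% and the gene body and intergenic classes of 11.2% and 11.6%.

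Between the kinds of promoter peak no difference in the elements was detected. At peaks over 400 bp upstream of a single gene the E2F share was 20.6% (odds ratio 1.05, interval 0.772 to 1.45) and the CHR share 38.9% (odds ratio 1.00, interval 0.771 to 1.299). In windows of several genes the shares were 21.3% (odds ratio 1.01, interval 0.802 to 1.28) and 39.3% (odds ratio 0.986, interval 0.810 to 1.20). None of these 4 differences passed the test, and the intervals leave room for odds up to 1.45 times as high. Against all other autosomal peaks together the shares were higher, 21.5% against 16.8% for E2F (odds ratio 1.36, interval 1.12 to 1.65, Fisher's exact test, adjusted p = 0.00551) and 38.9% against 33.7% for CHR (odds ratio 1.25, interval 1.07 to 1.47, adjusted p = 0.0150). Both elements together were at 12.3% against 9.47% (odds ratio 1.34, exact test, adjusted p = 0.0347). The gene body peaks (11.2% E2F, 24.8% CHR) and intergenic peaks (11.6% and 28.9%) were lower in each of 4 tests chosen after the values were seen, with odds ratios of 1.57 to 2.18. The CHR difference was lost without replicate 2 (odds ratio 1.19, exact test, adjusted p = 0.0608), and with elements counted within 25 bp (1.07, adjusted p = 0.665) or 100 bp (1.08, adjusted p = 0.483). The difference for both elements together was lost among peaks above the list's median signal (1.29, exact test, adjusted p = 0.212), with 1 transcript per gene (1.28, 0.102), with limits of 300 and 200 bp (1.26, 0.139) and within 25 bp (1.41, 0.249). All 3 differences from other peaks were lost in the band of 35% to 45% GC (odds ratios 1.20, 1.04 and 1.08).

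Within the peaks, E2F sites were at 23.2% of upstream and 13.8% of downstream summits (odds ratio 1.88, interval 1.18 to 3.12, Fisher's exact test, adjusted p = 0.0150). Among the peaks above the list's median signal the odds ratio was 1.23 (exact test, adjusted p = 0.753), and in the band of 35% to 45% GC it was 1.65 (adjusted p = 0.442), so the call was lost in both. CHR elements were at 39.4% and 36.8% (odds ratio 1.12, interval 0.787 to 1.59, exact test, adjusted p = 0.786), a difference that did not pass. With the strongest regions of replicate 1 alone as the peak list they were at 38.7% and 26.3% (odds ratio 1.77, exact test, adjusted p = 0.00354), and with those of replicate 2 alone at 41.9% and 32.9% (odds ratio 1.47, exact test, adjusted p = 0.0580).

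The 253 E2F matches were spread over the 4 words, 81 of TTGGCGC, 77 of TTCGCGC, 62 of TTCCCGC and 33 of TTGCCGC, and 30 summits had 2 or more matches. Of the 476 CHR matches, 401 were TTTGAA and 75 the palindrome TTCGAA. No preferred strand was detected for either element. In gene direction lay 129 of the 253 E2F matches and 210 of the 401 TTTGAA matches (two-sided exact binomial tests, adjusted p = 1 and 0.567). E2F matches gathered at the summit, with 47, 79, 72 and 61 per 1000 peaks in the 4 steps of 25 bp from -50 to 50 bp, and 6 to 16 in the steps beyond 75 bp.

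CHR matches did not centre on the summit, and only 1 step on its upstream side stood above the flanks. That step, from -50 to -25 bp in gene direction, held 196 per 1000 peaks. The step from -25 to 0 bp held 111, that from 0 to 25 bp 75 and that from 25 to 50 bp 117. The steps beyond 50 bp held 69 to 120. Within 50 bp, 294 CHR matches lay upstream of the summit and 182 downstream, 61.8% (interval 57.3% to 66.0%), against 49% for E2F. With the summits of replicate 1 the CHR share was 60.1% and with those of replicate 2 it was 60.3%. In the strongest quartile of the peaks it was 67.2% (interval 60.1% to 73.7%) and in the weakest 63.9% (interval 53.1% to 73.4%). The peaks far upstream had 61.4%, so the side was not particular to summits near 5′ ends. This measure was chosen after the values were seen and carries no test. In the sequences above, rpl-3 and pafo-1 show such a CHR match near their left end, while the CHR matches of pcn-1 and mcm-2 lie downstream of the summit.

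Where a summit had both elements, 3 spacings recurred. For each of the 123 summits the closest pair of an E2F and a CHR match was taken. The CHR match lay on the side of the TT end of the E2F word in 75 and on the side of its GC end in 48. On the TT side, 18 pairs were separated by 1 base, 16 by none and 14 by 9 bases, together 48 of 123, and no other spacing on either side occurred more than 5 times. The joined form TTTGAATTGCCGC is seen at mys-1, and TTTGAATTGGCGC at daz-1. The spacing of 9 bases is seen at mcm-2 and mes-2, and also occurred at hcp-1, a CENP-F-like kinetochore gene, and fcd-2, the FANCD2 homolog. The spacing of 1 base occurred at imb-3, and that of none at tba-2. Peaks with these 3 spacings had a median signal of 366, and 40 of 48 were above the list's median. The other 75 pairs had a median of 332, with 50 above it. The spacings were noticed after the values were seen, and no test was made.

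**Figure D4:**
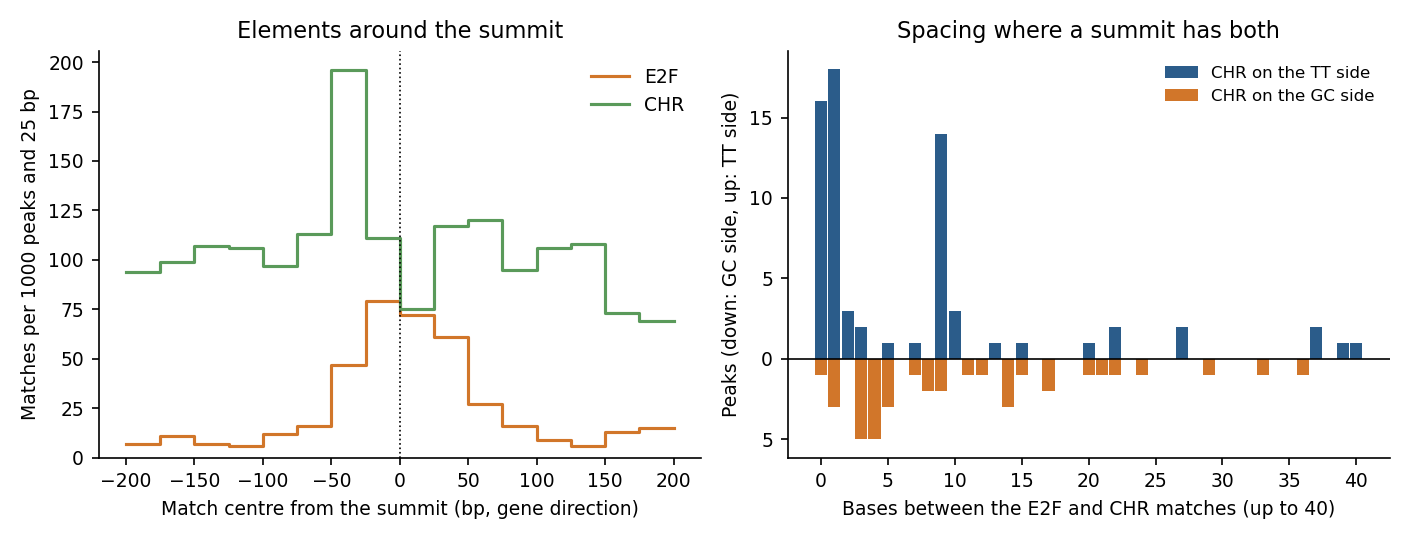
Left, matches per 1000 peaks in 25 bp steps by distance from the summit (bp, in gene direction), for E2F sites and CHR elements. Right, number of peaks by the bases between the closest E2F and CHR matches (up to 40), with the CHR match on the TT side plotted upward and on the GC side downward. E2F matches gather at the summit, CHR matches reach 196 per 1000 from -50 to -25 bp, and the spacings of 0, 1 and 9 bases on the TT side hold 16, 18 and 14 peaks.

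Of the 8 DREAM subunit genes 3 had a peak of this kind (37.5%), beside 5.6% of all autosomal genes. The lin-9 peak, of a core subunit, had signals of 840 and 757 in the replicates, a summit at -129 bp and a CHR element. The dpl-1 peak, at -247 bp with a CHR element, had 53.99 and 83.2, and the lin-52 peak, at +20 bp with neither element, had 83.6 and 67.5. Those 2 were among the weaker peaks. The peaks of lin-35, efl-1, lin-53 and lin-54 lay in windows of several genes, and lin-37 had no IDR summit in its window.

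Among cell cycle lists the share of genes with such a peak ran from 10.5% to 29.3%, beside 5.6% of all autosomal genes, with no test of the difference. The Wilson intervals for the condensin and cohesin list (2.94% to 31.4%) and for the cyclin list (4.97% to 28.1%) include 5.6%. Of 41 DNA replication genes 12 had one (29.3%). Any IDR summit in the promoter window was found at 33, a count for which no share over all autosomal genes was computed. The 13 replication peaks of this kind held an E2F site in 9 and a CHR element in 10. Of all 999 peaks 21.5% held an E2F site and 38.9% a CHR element. The element counts of single lists rest on few peaks and were not tested. After pcn-1, the strongest was mcm-2, a subunit of the replicative helicase (545 and 626). Of 48 DNA repair genes 10 had one, led by the nuclease gene fan-1 (322 and 300) and by fcd-2 (261 and 337), and 9 of these 10 peaks had a CHR element. Of 41 spindle, centrosome and cytokinesis genes 8 had one, with lin-5, the NuMA-like spindle protein (303 and 312), and zen-4, the kinesin of the central spindle (316 and 281), as the strongest. None of their 9 peaks had a CHR element. Outside this list, rsa-2, annotated as a regulator of spindle assembly, had a peak with that element (218 and 208). Of the 9 listed peaks 2, both at lin-5, matched the same replicate regions. Of 21 kinetochore genes 4 had one, led by hcp-1 (419 and 454) and knl-2 (78.3 and 104.5), of 19 condensin and cohesin genes 2, scc-2 (274 and 288) and capg-1 (63.5 and 67.0), and of 32 cyclin, CDK and anaphase promoting complex genes 4, led by the inhibitory kinase gene wee-1.3 (529 and 525) and the CDK inhibitor gene cki-2 (80.7 and 51.2). The kinetochore, condensin and cyclin groups each rest on 4 or fewer peaks.

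Among germline and chromatin lists the share ran from 13.9% to 29.0%, beside 5.6% of all autosomal genes, with no test of the difference. Of 50 genes listed as germline RNA regulators 12 had a peak of this kind (24.0%). The list is broader than its name, as egg-1, egg-2 and egg-3 are among the 12. The strongest were egg-1, an oocyte surface protein gene (403 and 398), and daz-1, an RNA-binding protein gene of the DAZ family (304 and 317). Of 31 synMuv and chromatin genes 9 had one (29.0%), led by mys-1, a MYST-family acetyltransferase gene (555 and 745), and mes-2, the EZH2 homolog (511 and 552). Of 46 listed small RNA pathway genes 8 had one (17.4%), led within the list by the RNA-dependent RNA polymerase gene ego-1 (152 and 131) and eri-5 (130 and 49.2). The list leaves out pash-1, whose peak of this kind was stronger (450 and 483). Of 36 meiotic chromosome genes 5 had one (13.9%), led by syp-5, a synaptonemal complex gene (268 and 306), and dsb-2, a gene needed for meiotic breaks (199 and 186). The eri-5 value was lower in replicate 2, and the mys-1 value higher there.

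Among lists of general cell functions the share ran from 10.5% for the splicing list to 26.3% for the nuclear pore and transport list. The splicing list leaves out some genes annotated with splicing that had a peak of this kind, so its 10.5% describes the list only. Over all autosomal genes the share was 5.6%, and no test of the difference was made. The Wilson intervals for splicing (4.17% to 24.1%), mitochondrial ribosomal protein (5.23% to 20.3%) and chaperone genes (5.58% to 21.5%) include 5.6%. Of 80 cytosolic ribosomal protein genes 19 had a peak of this kind (23.8%), rpl-3 and rpl-24.2 (692 and 765) the strongest. An E2F site was at 1 of these 19 peaks, beside 21.5% of all 999, with no test. Of 38 nuclear pore and transport genes 10 had one (26.3%), with ima-2, an importin alpha gene (864 and 910), after imb-3. Of 46 respiratory chain genes 10 had one, cox-5A and cox-5B (678 and 693) the strongest, of 45 ubiquitin conjugation and cullin genes 10, ubc-7 (320 and 465) and ubc-9 (293 and 266), and of 65 vesicle traffic genes 10, vps-4 (456 and 528) and sec-12 (240 and 262). Of 31 aminoacyl tRNA synthetase genes 7 had one, vars-1 (229 and 235) and aars-2 (111 and 152), of 66 mitochondrial ribosomal protein genes 7, mrpl-47 (257 and 349) and mrpl-28 (237 and 219), and of 62 chaperone genes 7, dnj-9 (928 and 946) and sti-1 (336 and 355). Of 33 proteasome genes 6 had one, rpn-11 (566 and 505) and pas-5 (157 and 161), and of 35 translation factor genes 6, eif-3.C and eif-3.B (390 and 372). Of 38 listed splicing genes 4 had one, led by the Sm protein gene snr-4 (287 and 253) and the SR protein gene rsp-6 (233 and 250). Stronger peaks outside that list included those of mog-4 (508 and 460), annotated as a splicing factor, and snrp-3 (382 and 361), annotated as a U1 small nuclear ribonucleoprotein.

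Large families with tissue-restricted or environmental roles had few. Of 1331 chemoreceptor genes 5 had a peak of this kind (0.376%), with srbc-58 (145 and 176) and srh-2 (109 and 102) the strongest. Of 305 listed F-box genes 2 had one, fbxa-140 (68.5 and 43.3) and fbxc-45 (51.7 and 62.5). That list leaves out fbxl-2 (858 and 958) and skpt-1 (394 and 457), annotated with an F-box domain, whose peaks of this kind were stronger. Of 237 C-type lectin genes 1 had one, clec-196, which was found in replicate 1 alone (87.6). Of 246 nuclear hormone receptor genes 3 had one, led by nhr-49 (71.8 and 41.3) and nhr-66 (87.9 and 18.9). None of 129 collagen genes had one, which with a count of 0 allows a share of up to 2.89% by the Wilson interval, and none of 67 cytochrome P450 genes (up to 5.42%). Of 21 muscle genes 2 had one, unc-45 (98.5 and 173) and unc-112 (78.5 and 52.2), and of 30 neuron genes 2, unc-31 (82.0 and 80.8) and snb-1 (53.9 and 52.2). The muscle and neuron shares, 9.52% and 6.67%, were near the 5.6% of all genes.

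**Figure D5:**
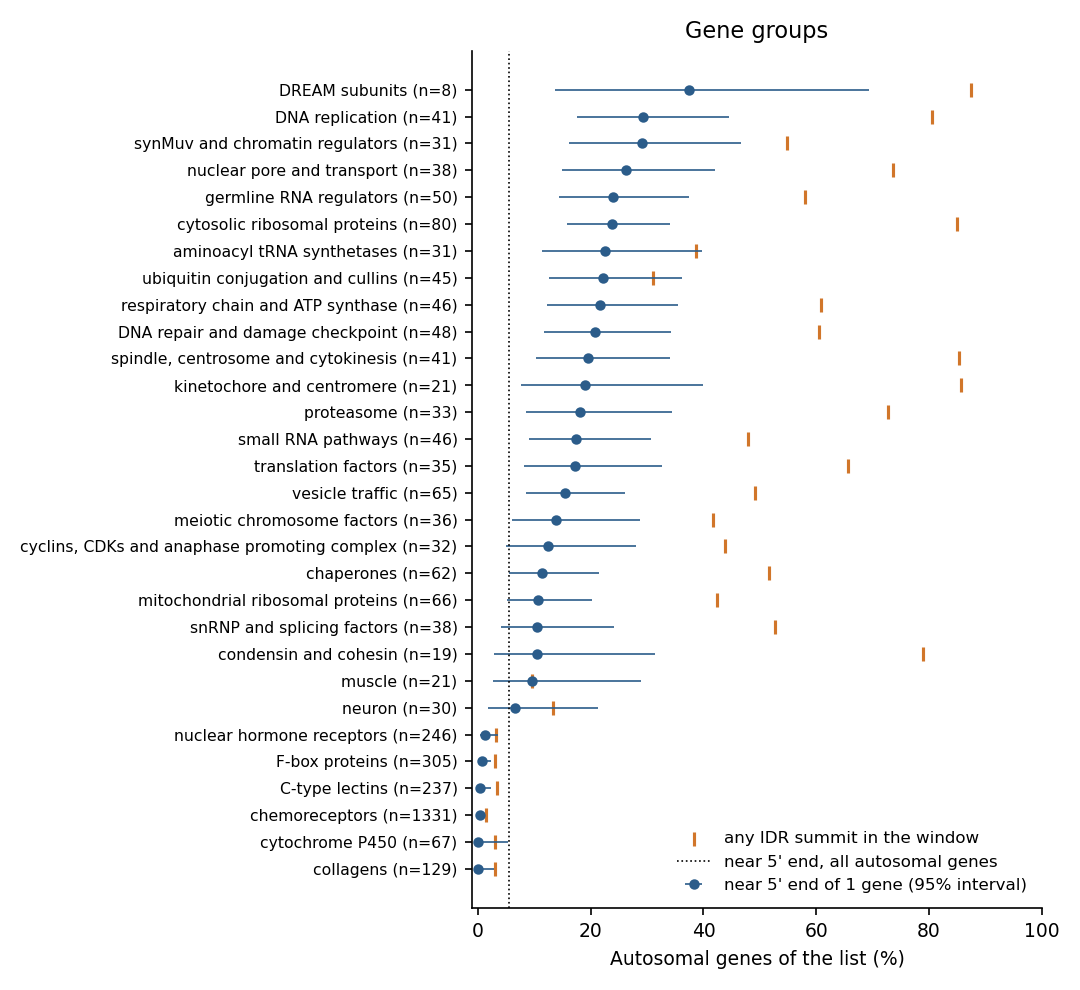
Share of the autosomal genes of each list with a peak near the 5′ end of a single gene (points with 95% Wilson intervals, %), and with any IDR summit in the promoter window (vertical ticks). The dotted line is the 5.6% of all autosomal protein-coding genes with a peak near the 5′ end of a single gene, and it does not apply to the ticks. DNA replication genes stand at 29.3% and chemoreceptors at 0.376%.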

How the data were processed

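ChIP-seq peaks of LIN-54 from 2 replicates were taken as deposited, in build ce11 (WBcel235) per the labels. The authors deposited the IDR list and relaxed lists of 30000 regions for each replicate and the pool. The signal in these deposited lists is a caller's score. The sources used here name neither its formula nor the aligner or caller. Depth per library is unknown, so Wilson 95% intervals on shares reflect the number of peaks or genes only.

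Analysis used Python 3.11.15 (numpy 2.4.6, pandas 2.3.3, scipy 1.17.1, matplotlib 3.10.9). Genes came from Ensembl release 115, gene descriptions from RefSeq, and sequence from the WBcel235 reference. A peak was matched to the strongest replicate region that overlapped at least 50% of the shorter of both. For shares, two-sided Fisher's exact tests were used, and for strand exact binomial tests, with Benjamini-Hochberg adjustment over 20 tests at a threshold of 0.05. A further 6 tests, adjusted on their own, were chosen after values were seen, as were the side of CHR matches, the spacing of pairs and the 6-base words. Class rule, motif count and test were tested on simulated data. Members, motifs, 30 gene lists and the rule for named genes were chosen with earlier results of these data known. Lists are described by counts, carry no test and can leave out genes of the same function. The strongest peaks named for a list are those within it. The rule named the 10 strongest peaks, the 3 strongest with both elements, with neither and downstream, every DREAM subunit, the 2 strongest of each list, the gene with most peaks, and peaks at the limits. Sequences are shown for some of the named intergenic peaks outside chromosome I. The alternatives changed the list, replicates, windows, 5′ ends, limits, tRNA removal, GC, motif distance and overlap.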

Additional observations from a re-analysis of the deposited data

How the results depend on the processing

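The contrasts of strongest and weakest quartiles (E2F odds ratios 4.86 without replicate 2 and 5.55 without replicate 1, CHR 4.54 and 2.76) and the stronger signal of upstream summits kept direction and call under every alternative run. Leaving out replicate 1 gave 1002 peaks and replicate 2 966, and CHR odds ratios against other peaks of 1.31 and 1.19 (the latter no longer passing) and upstream against downstream of 1.47 and 1.77 (the last now passing). The odds ratio for chromosome centres was 0.999 and 0.993, among peaks above the list's median signal 0.871 and with limits of 300 and 200 bp 0.959, none of which passed the test. The peaks above that median held 547 of this kind, and odds ratios against other peaks were 1.29 for both elements, 1.11 for strong signal and 0.760 for replicate agreement, and 1.23 for E2F upstream against downstream, none of them passing. Both elements together also lost the call with 1 transcript per gene (1.28), with the narrower limits (1.26) and at 25 bp (1.41). In the band of 35% to 45% GC, 432 peaks remained, and no call held for the following odds ratios: 1.20 for E2F, 1.04 for CHR, 1.08 for both, 1.23 for signal, 1.65 for E2F upstream against downstream and 0.922 for CHR upstream against downstream. CHR against other peaks lost the call at 25 bp (1.07) and 100 bp (1.08), and CHR upstream against downstream was 0.868 at 25 bp. Some settings leave fewer peaks, and the causes of these changes were not tested. No paired analysis was possible because the study has 1 group.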

Other observations

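Words of 6 bases rich in CG steps were frequent around these summits, beyond the E2F words themselves. The word ACGCGC, counted on either strand within 50 bp, was at 18.4% of the 999 summits, 12.4% of other autosomal peaks and 2.59% of all autosomal promoter windows. GAGCGC was at 15.3%, 13.3% and 1.90%, and CGAGAC at 15.3%, 14.1% and 2.96%. By signal, ACGCGC was at 29.2% of summits in the strongest quartile and 8.4% in the weakest, and CGAGAC at 12.8% and 15.2%. ACGCGC and GAGCGC had the largest excess over all promoters, and CGAGAC, which stood below other words by that measure, was singled out after its values were seen. Base composition, with a median GC share of 44.6% at the peaks and 32.7% in all promoter windows, moved with them; its part was not tested.

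Some of the peaks lie near noncoding RNA genes. Of the 999 summits 16 were within 200 bp of a snoRNA gene, 7 of an snRNA gene, 4 of a miRNA gene, 7 of a piRNA gene and 54 of a gene classed as ncRNA. The zen-4 peak is among those near a snoRNA gene, and the snr-4 peak among those near an snRNA gene. Shares over all IDR peaks or all promoters were not computed, so these counts do not show whether such peaks are more frequent here. The next IDR summit was a median of 3184 bp away, and for 24 of the 999 peaks it lay within 500 bp.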
